A study of Mus musculus with 3 samples.

Results

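FLI1, RUNX1 and input reads were counted at 9 genes of the thromboxane and eicosanoid pathway in mature mouse megakaryocytes, the cells that shed platelets. The genes were chosen by name for their place in the pathway, and all 9 were found among the 22367 protein-coding genes of the annotation. The reads came from 1 ChIP-seq library per antibody and 1 control library of unprecipitated chromatin (input). The cells were wild-type and came from the livers of CD1 mouse embryos, of embryonic day 15 in the sample labels and day 14 in the study's methods, cultured for 5 days with thrombopoietin (the cytokine that drives megakaryocyte growth). Red cells and myeloid cells were depleted with antibodies, among them TER119, GR1 and CD11b, and the large mature cells were collected as the pellet of a gradient of bovine serum albumin. Each library was a pool of at least 3 preparations, so the spread between cultures cannot be seen, no test between libraries was possible, and all intervals given here are 95% intervals that cover counting error only. Reads come from every cell of the culture, so that strong occupancy in some cells and weaker occupancy in all of them cannot be told apart, and RNA of these genes was not analysed here.

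Platelets release arachidonic acid from their membranes when they are activated and turn it, through a cyclooxygenase, into a short-lived endoperoxide. Thromboxane synthase converts this endoperoxide into thromboxane A2, which activates further platelets through its own receptor and whose synthesis aspirin blocks. Lipoxygenases turn the same arachidonic acid into hydroxylated fatty acids and leukotrienes, and prostacyclin made by the vessel wall restrains platelets through a separate receptor. FLI1 is an ETS-family factor that binds DNA around the letters GGAA, and RUNX1 is the DNA-binding subunit of core-binding factor. Both are required for normal megakaryocyte development.

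The genes cover each of these steps. Pla2g4a encodes the cytosolic phospholipase that frees arachidonic acid, Ptgs1 and Ptgs2 encode cyclooxygenase-1 and cyclooxygenase-2, and Tbxas1 encodes thromboxane synthase. Alox12 encodes the platelet 12-lipoxygenase, Alox5 encodes 5-lipoxygenase, and Alox5ap encodes the membrane protein that presents arachidonic acid to it. Tbxa2r and Ptgir encode the receptors for thromboxane and for prostacyclin.

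Read positions were counted in bins of 400 bp. The mean was 10.8 reads per bin for FLI1, 0.679 for RUNX1 and 3.72 for input, from 62946422, 3973856 and 21745220 reads. A bin was called rich when it held at least 6 reads and at least 3 times the reads expected, where the expectation is the higher of the genome-wide mean and the input reads of the surrounding 10 kb scaled to depth. The methods describe an input digested with micrococcal nuclease, the labels sonicated chromatin, and if the former holds, each ratio over input and each expectation sets sonicated ChIP DNA against chromatin cut in another way. With the genome-wide mean alone as the expectation, 8 of 9 genes had a FLI1-rich bin within 2 kb of the start and 9 of 9 in the territory, as with input. Leaving out the input can only lower the expectation, so these counts could not fall, and they are no check on the input. The input reads were also shorter, at 34 bp against 50 bp for FLI1 and RUNX1. How far the input, or this difference in length, sets the calls or the ratios over input was not tested. The deposited RUNX1 file holds far fewer reads than the study lists for this library, and whether it is the whole library is not known, so every RUNX1 count or missing RUNX1 call given here holds for this file alone. In it the minimum of 6 reads sets the call, and weaker RUNX1 sites are not detectable at its depth. Fold below always means the reads of a bin over this expectation. Intervals of folds and of reads over expected take the expectation as exact, and so leave out the counting error of the input. A gene start is the 5′ end of the gene record in the annotation, and a territory is the gene body with 20 kb to either side.

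The sites with most FLI1 reads are shown first, because they carry the comparison between the genes. Each sequence below is mm9 DNA on the strand of the gene, written 5′ to 3′, and reaches 100 bp to either side of the base covered by most FLI1 fragments in that bin (the summit). Capitals mark the ETS letters CCGGAA or CAGGAA and the RUNX letters TGTGGT or TGCGGT, read on either strand. For 6 genes the site is that with most FLI1 reads in the territory. For Alox12 and Ptgir it is the site with most reads whose nearest gene start is their own, and Tbxas1 is given by its leading intronic site, its second intronic site and the site at the start of its full-length transcript.
Pla2g4a intron 1, chr1:151787580-151787780, minus strand: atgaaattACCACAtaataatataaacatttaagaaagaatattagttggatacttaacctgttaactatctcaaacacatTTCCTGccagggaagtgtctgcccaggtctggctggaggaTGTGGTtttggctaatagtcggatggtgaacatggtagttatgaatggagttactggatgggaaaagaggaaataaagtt
Ptgs1 intron 2, chr2:36086522-36086722, plus strand: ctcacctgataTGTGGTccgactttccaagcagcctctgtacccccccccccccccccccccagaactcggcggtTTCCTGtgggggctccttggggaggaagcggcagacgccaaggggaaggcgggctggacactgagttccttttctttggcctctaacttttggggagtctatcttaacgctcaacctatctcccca
Ptgs2 promoter, chr1:151947017-151947217, plus strand: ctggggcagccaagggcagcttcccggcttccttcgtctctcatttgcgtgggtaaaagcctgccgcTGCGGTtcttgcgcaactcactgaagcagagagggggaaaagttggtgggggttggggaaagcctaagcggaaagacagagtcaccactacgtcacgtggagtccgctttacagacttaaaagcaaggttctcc
Tbxas1 intron 2, chr6:38899678-38899878, plus strand: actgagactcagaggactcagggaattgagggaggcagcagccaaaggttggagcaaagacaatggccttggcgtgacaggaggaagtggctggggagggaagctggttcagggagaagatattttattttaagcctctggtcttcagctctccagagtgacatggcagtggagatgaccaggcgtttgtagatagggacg
Tbxas1 intron 9, chr6:39009742-39009942, plus strand: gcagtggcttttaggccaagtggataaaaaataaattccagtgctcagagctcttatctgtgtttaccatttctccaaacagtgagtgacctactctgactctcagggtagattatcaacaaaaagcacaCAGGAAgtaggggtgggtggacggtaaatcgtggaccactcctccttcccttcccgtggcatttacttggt
Tbxas1-001 start, chr6:38868841-38869041, plus strand: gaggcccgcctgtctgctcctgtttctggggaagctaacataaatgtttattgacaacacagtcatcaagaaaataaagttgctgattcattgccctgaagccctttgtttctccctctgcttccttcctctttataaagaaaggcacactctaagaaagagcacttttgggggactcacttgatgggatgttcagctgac
Alox12 intron 7, chr11:70063725-70063925, minus strand: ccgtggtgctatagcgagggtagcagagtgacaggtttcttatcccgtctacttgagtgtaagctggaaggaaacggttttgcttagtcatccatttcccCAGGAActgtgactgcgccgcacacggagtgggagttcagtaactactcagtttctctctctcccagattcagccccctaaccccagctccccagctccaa
Alox5 intron 1, chr6:116405942-116406142, minus strand: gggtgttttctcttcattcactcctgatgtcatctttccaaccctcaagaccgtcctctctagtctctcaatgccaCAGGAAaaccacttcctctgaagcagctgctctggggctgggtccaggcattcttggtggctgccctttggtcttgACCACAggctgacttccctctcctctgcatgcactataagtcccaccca
Alox5ap upstream, chr5:150057675-150057875, plus strand: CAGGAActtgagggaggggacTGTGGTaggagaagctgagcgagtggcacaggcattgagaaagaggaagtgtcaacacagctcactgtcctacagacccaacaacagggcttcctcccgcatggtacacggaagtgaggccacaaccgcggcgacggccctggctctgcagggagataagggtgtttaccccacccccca
Tbxa2r upstream, chr10:80789675-80789875, plus strand: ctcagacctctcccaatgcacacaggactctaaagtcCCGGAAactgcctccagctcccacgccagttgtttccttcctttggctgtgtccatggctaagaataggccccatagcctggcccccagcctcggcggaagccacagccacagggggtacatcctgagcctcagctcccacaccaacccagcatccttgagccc
Ptgir upstream, chr7:17489709-17489909, plus strand: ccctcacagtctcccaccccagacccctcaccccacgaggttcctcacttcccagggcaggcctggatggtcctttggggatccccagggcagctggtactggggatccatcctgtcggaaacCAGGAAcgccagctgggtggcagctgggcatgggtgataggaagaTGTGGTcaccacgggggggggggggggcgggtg

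Of these sites, those of Pla2g4a, Ptgs1, Alox5, Alox5ap and Ptgir hold both kinds of letters. The sites of Alox12 and Tbxa2r and the intron 9 site of Tbxas1 hold ETS letters and no RUNX letters, and the Ptgs2 promoter holds RUNX letters and no ETS letters. The leading site of Tbxas1 and the site at the Tbxas1-001 start hold neither, although both contain the shorter core GGAA. A missing match says only that these letters are not in the window.

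FLI1 was found near the start of most of the 9 genes. A FLI1-rich bin lay within 2 kb of the gene start of 8 of 9 genes, against 39.3% of all protein-coding genes, and Tbxas1 was the exception. Within 2 kb of any annotated protein-coding transcript start the count was 9 of 9, against 41.4% of all genes. The median fold of the richest bin near the start was 4.66 over the 9 genes and 1.95 over all protein-coding genes. Most of these bins were of moderate height. With at least 5 times the expected reads, 2 of 9 genes kept a rich bin at the start (Ptgs1 and Tbxa2r), against 26.4% of all genes, and within 1 kb of the start it was 5 of 9 against 36.8%. With FLI1 thinned to as many reads as RUNX1 had, it was again 2 of 9 (Ptgs1 and Tbxa2r), against 20.2% of all genes. In both cases the share of the 9 genes (22.2%) lay near that of all genes.

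The phospholipase gene Pla2g4a (ENSMUSG00000056220.8, chr1:151676748-151808420, minus strand) had the highest FLI1 over input ratio within 2 kb of its start. Its 4 kb around the start held 250 FLI1, 12 RUNX1 and 18 input reads. Scaled to depth, FLI1 over input was 4.80 (2.97 to 8.23), and 98.4% of genes had a lower ratio. These 18 input reads are the fewest of the 9 genes, and the richest bin there had a fold of only 4.37, and how far the low input sets the ratio was not tested. The sites with most reads lay far inside the gene instead. In intron 1, 20740 bp from the start, a bin held 182 FLI1 reads at a fold of 16.9 (14.5 to 19.6), with 1 RUNX1 read and 1 input read. Other bins of the same intron held 142 reads at 21457 bp and 141 reads at 14092 bp. Of the 17 FLI1-rich bins in the territory, 15 were intronic, and they formed 8 separate runs of adjacent bins. Of 1334 genes with territories of like length (137348 to 214236 bp), Pla2g4a among them, 26 others had at least as many, and the median was 3.

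**Figure D1:**
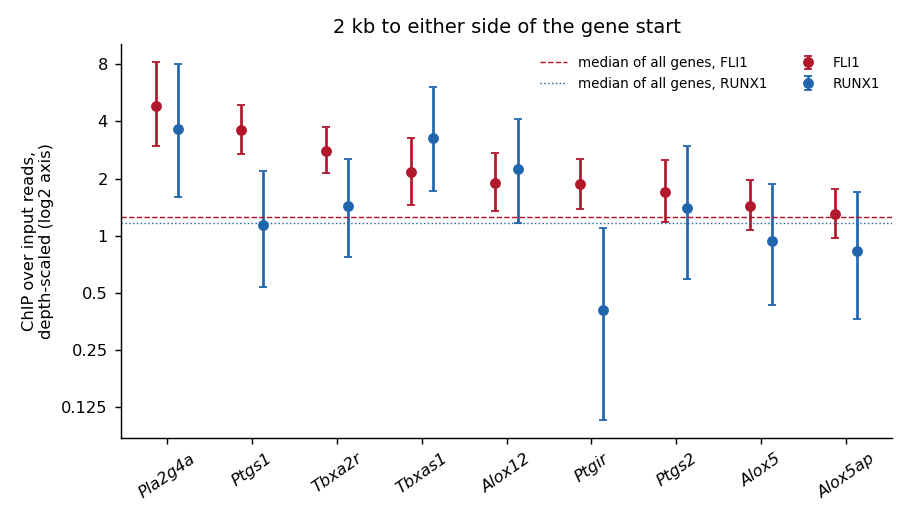
FLI1 (red) and RUNX1 (blue) reads over input reads within 2 kb of the gene start of each of the 9 genes, scaled to library depth, on a log2 axis. Points are ratios of single libraries and bars are 95% intervals for counting error. Dashed and dotted lines are the medians over all protein-coding genes, 1.26 for FLI1 and 1.17 for RUNX1. The FLI1 points run from 4.80 at Pla2g4a to 1.31 at Alox5ap, and the RUNX1 bars are wide.

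The cyclooxygenase genes are given next. The 4 kb around the start of Ptgs1 (ENSMUSG00000047250.6, chr2:36085946-36107792, plus strand) held 551 FLI1, 11 RUNX1 and 53 input reads, a FLI1 over input ratio of 3.59 (2.71 to 4.86). The bin with most reads lay 676 bp inside the gene, in intron 2, with 164 FLI1 reads at a fold of 10.98 (9.36 to 12.8), and the bin at the start itself held 115 reads at a fold of 7.64. FLI1 thus formed 1 continuous block over the Ptgs1 promoter and its first introns, in which 4 adjacent bins were rich. A further site 29075 bp from the start, downstream of the gene, held 107 reads at a fold of 8.18, and a pair of bins 13754 and 13253 bp upstream held 87 and 70 reads.

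Ptgs2 (ENSMUSG00000032487.7, chr1:151947254-151955140, plus strand) held 172 FLI1, 9 RUNX1 and 35 input reads around its start, a ratio of 1.70 (1.17 to 2.52). Its territory had a single FLI1-rich bin, with its summit 137 bp upstream of the start, with 54 FLI1 reads at a fold of 4.66 (3.50 to 6.09), 3 RUNX1 reads and 3 input reads. The next bins in order held 25 and 23 reads at folds of 2.18 and 2.14. Within 2 kb of the start the interval of its ratio did not overlap that of Ptgs1. Within 1 kb the ratios were 3.17 (1.74 to 6.32) at Ptgs2 and 6.25 (4.18 to 9.76) at Ptgs1, with overlapping intervals. Over the whole territory FLI1 over input was 0.995 (0.895 to 1.11) at Ptgs2 and 1.45 (1.34 to 1.58) at Ptgs1. With 50 kb to either side these ratios were 1.05 and 1.18.

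Thromboxane synthase is the enzyme that gives the pathway its platelet product. The Tbxas1 gene record (ENSMUSG00000029925.7) spans chr6:38825403-39034584 on the plus strand, and its 5′ end is that of the transcript Tbxas1-003, which overlaps the 5′ end of Hipk2 on the opposite strand, so that reads there cannot be assigned to either gene. The transcript Tbxas1-001, with 13 exons, starts 43582 bp further in by RefSeq's promoter entry. Around the 5′ end of the record there were 187 FLI1, 18 RUNX1 and 30 input reads, a FLI1 over input ratio of 2.15 (1.46 to 3.28) with no rich bin and a highest fold of 2.07. Around the start of Tbxas1-001 there were 206 FLI1, 7 RUNX1 and 60 input reads, a ratio of 1.19 (0.886 to 1.61). The FLI1 reads at these starts were close in number, 187 and 206, and the input reads were 30 and 60. The Tbxas1-001 start carried 1 FLI1-rich bin, 38 bp upstream, with 46 reads at a fold of 3.06, close to the limit of the call. Another transcript, Tbxas1-006, starts further inside the gene and had a FLI1 over input ratio of 0.997 (0.741 to 1.36).

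**Figure D2:**
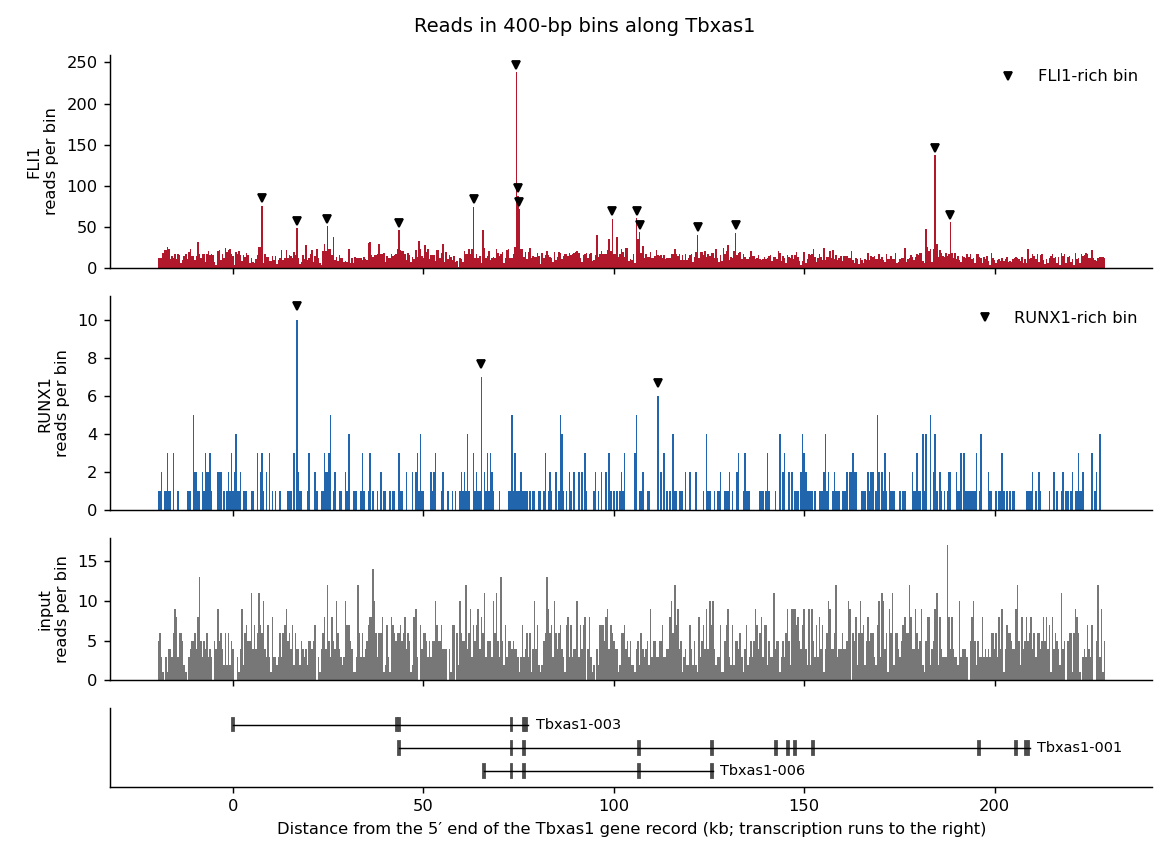
FLI1, RUNX1 and input reads in 400-bp bins along Tbxas1 and 20 kb to either side, with exons of the 3 protein-coding transcripts below. The x axis is the distance in kb from the 5′ end of the gene record, and triangles mark rich bins. The highest FLI1 bin holds 238 reads, the highest RUNX1 bin holds 10 reads, and they lie at different places.

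The 3 bins of Tbxas1 with most FLI1 reads were intronic and over 8 kb from any protein-coding transcript start. The leading bin, in intron 2 of Tbxas1-001 with its summit at chr6 position 38899778, held 238 FLI1 reads at a fold of 17.7 (15.5 to 20.1), with 1 RUNX1 read and 4 input reads. It lies 30799 bp inside Tbxas1-001 and 8378 bp from the start of Tbxas1-006, the nearest start of any protein-coding transcript. The next bins on its downstream side held 88 and 72 reads. The second site, in intron 9 and 140863 bp inside the transcript, held 137 FLI1 reads at a fold of 8.27 (6.95 to 9.78), with 4 RUNX1 and 9 input reads. Both intronic sites held more FLI1 reads than the bin at the Tbxas1-001 start.

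Weaker bins were spread over the rest of the gene. Upstream of Tbxas1-001 and within the longer record, a bin at 7496 bp from the 5′ end held 76 FLI1 reads at a fold of 4.90 and a bin at 24907 bp held 51 reads at 3.47. Intron 1 held a bin of 75 reads at a fold of 4.44. In intron 3, bins of 61 and 60 reads had folds of 5.22 and 4.32. Intron 9 held another bin of 56 reads at a fold of 3.75. In all, 15 of 622 bins of the territory were FLI1-rich, in 13 runs, 11 of them in introns and 4 upstream of Tbxas1-001 or at its start. Of the 15 bins, 4 lay nearer to the start of another gene. Of 681 genes with territories of like length (199423 to 310489 bp), Tbxas1 among them, 29 others had at least as many, and the median was 3. At other settings the count for Tbxas1 was 36 at 2 times expected, 5 at 5 times expected, 23 without input and 4 with FLI1 thinned. The comparison with genes of like length was not repeated at these settings. Among the 9 genes Tbxas1 was not an extreme per length, with 6.02 rich bins per 100 kb, between 2.09 at Ptgs2 and 24.1 at Alox12. Over all protein-coding genes the median was 2.23 per 100 kb and the upper quartile 5.75. The reads over the whole Tbxas1 territory gave a FLI1 over input ratio of 1.12 (1.08 to 1.17).

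Genes were compared with Tbxas1 in 4 measures, each as a standardised value. These were FLI1 over input at the start, FLI1 and RUNX1 over input in the territory, and FLI1-rich bins per 100 kb. The start of Tbxas1 was here the 5′ end shared with Hipk2, with its ratio of 2.15. Only protein-coding genes outside its territory and with territories of broadly similar length were considered. The most alike were Ptprj, Cbara1 and Lrrfip2, at distances of 0.165, 0.176 and 0.209 standard deviations. They held 13, 12 and 9 FLI1-rich bins in their territories, numbers that largely follow from the matching.

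In the lipoxygenase branch the sites with most reads lay outside the promoters. The 4 kb around the start of Alox12 (ENSMUSG00000000320.3, chr11:70054959-70068855, minus strand) held 214 FLI1, 16 RUNX1 and 39 input reads, a FLI1 over input ratio of 1.90 (1.34 to 2.74). The sites in its introns were weak, with 57 reads at a fold of 4.07 in intron 7 and 47 reads at 3.62 in intron 1, 503 bp from the start. The richest bins of its territory lay nearer to the starts of its neighbours, and which gene they act on was not tested. The first, with 188 FLI1 reads at a fold of 15.3 and 8 RUNX1 reads, lay 106 bp from the start of 0610010K14Rik, and the next, with 173 reads, had Slc16a13 as its nearest start. The third, with 96 reads at a fold of 6.05, lay 816 bp from the Slc16a13 start. Of its 13 FLI1-rich bins, 10 lay nearer to the start of another gene, so that its territory FLI1 over input of 1.64 (1.51 to 1.80), higher than at 99.1% of genes, is not a measure of Alox12 alone.

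Alox5 (ENSMUSG00000025701.6, chr6:116360095-116411196, minus strand) held 242 FLI1, 10 RUNX1 and 58 input reads around its start, a ratio of 1.44 (1.08 to 1.95). Intron 1 held 115 FLI1 reads at 5154 bp from the start, at a fold of 8.01 (6.61 to 9.61), and 106 reads at 2218 bp, at a fold of 6.88. The third bin of the territory, in intron 7 and 43486 bp from the start, held 70 reads at a fold of 4.69. The only rich bin within 2 kb of its start adjoined the intron 1 bin at 2218 bp. It lay 1911 bp inside, with 69 FLI1 reads at a fold of 4.66 and 6 RUNX1 reads. Within 1 kb of the Alox5 start no bin was FLI1-rich.

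Alox5ap (ENSMUSG00000060063.5, chr5:150076634-150099621, plus strand) had the highest single FLI1 bin of all 9 territories. It lay 18859 bp upstream of the start and held 370 FLI1 reads at a fold of 32.0 (28.8 to 35.4), with 10 RUNX1 reads and 1 input read. The bin next to it held 120 FLI1 reads at a fold of 10.7. The nearest protein-coding start was that of Alox5ap itself. Inside the gene, intron 2 held a bin of 75 reads at a fold of 6.05, 7626 bp from the start. The promoter held a moderate bin of 74 reads at a fold of 4.35, and the 4 kb around the start held 223 FLI1, 9 RUNX1 and 59 input reads, a ratio of 1.31 (0.976 to 1.77). This was the lowest of the 9 within 2 kb of the start, but not within 1 kb, where it was 1.81 and Alox5 had the lowest at 1.13. The distal site of Alox5ap is near the edge of the territory, and with 10 kb in place of 20 kb to either side the FLI1 over input ratio of the territory was 0.998.

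Of the receptors, Tbxa2r (ENSMUSG00000034881.7, chr10:80791477-80797916, plus strand) had the strongest site near a start. It lay 1702 bp upstream and held 289 FLI1 reads at a fold of 18.4 (16.3 to 20.6), with 3 RUNX1 and 8 input reads, and 98.7% of genes had a lower fold in their richest start bin. The 4 kb around the start held 496 FLI1, 16 RUNX1 and 61 input reads, a ratio of 2.81 (2.15 to 3.73). Within 1 kb of the start, which leaves this site out, the ratio was 1.70 (1.11 to 2.70). The other 3 FLI1-rich bins of this territory lay within 2 kb of the starts of neighbouring genes, and those with most reads, 105 and 82, were next to the start of 2510012J08Rik.

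Ptgir (ENSMUSG00000043017.9, chr7:17491839-17496254, plus strand) held 291 FLI1, 4 RUNX1 and 54 input reads around its start, a ratio of 1.86 (1.39 to 2.54). Its own leading site lay 2030 bp upstream with 144 FLI1 reads at a fold of 9.21 (7.77 to 10.8), and intron 2 held bins of 70 and 65 reads. The highest bin of the Ptgir territory, with 185 FLI1 reads at a fold of 12.9 and 9 RUNX1 reads, lay 103 bp from the start of Calm3, a calmodulin gene downstream of it. The bin beside that one held 151 FLI1 reads at a fold of 10.7 and no RUNX1 read.

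**Figure D3:**
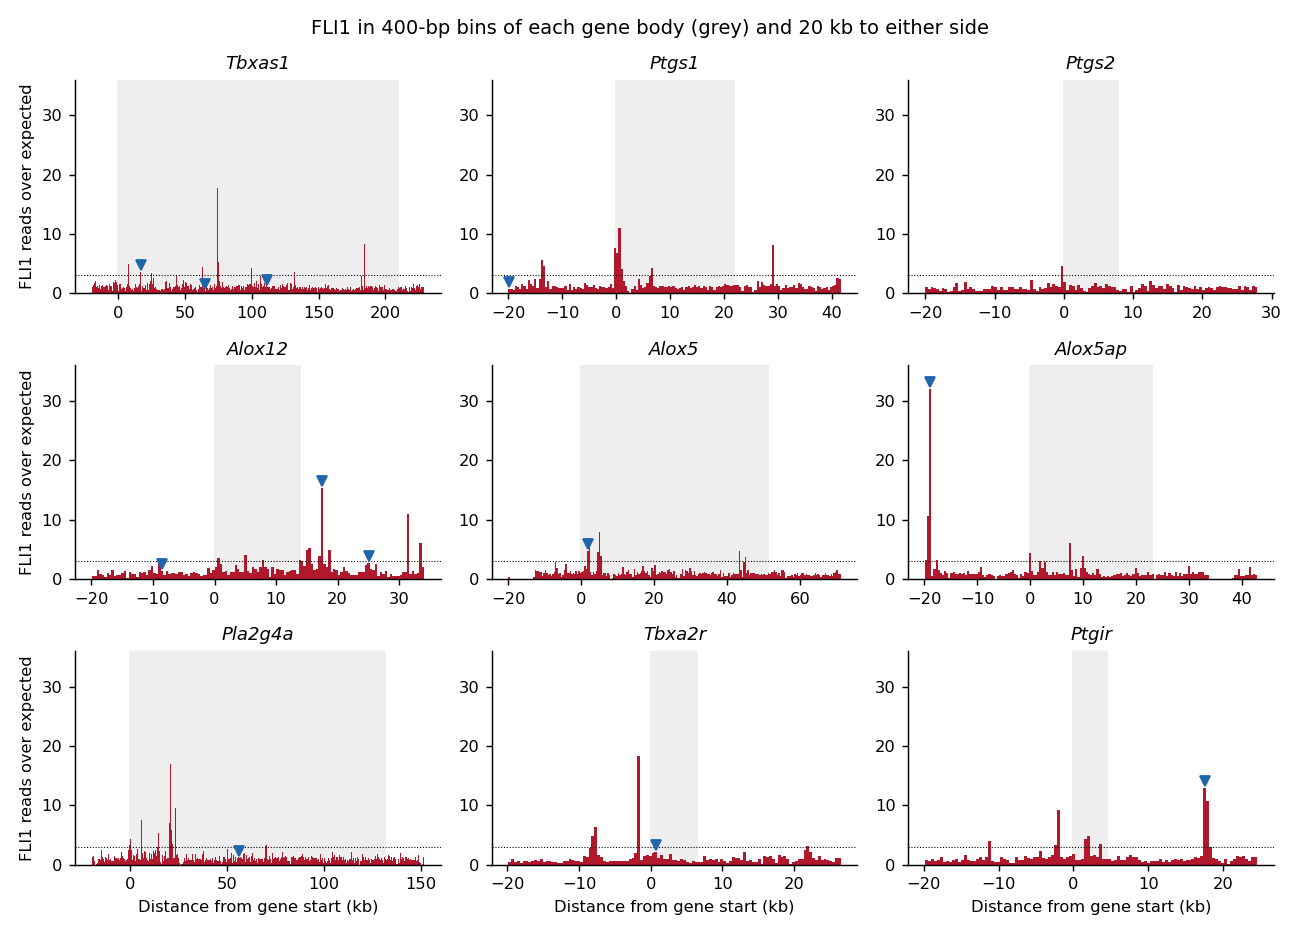
FLI1 reads over expected reads in the 400-bp bins of each of the 9 territories, against the distance in kb from the gene start in the direction of transcription. Grey marks the gene body, the dotted line is 3 times expected, and blue triangles mark RUNX1-rich bins. The highest bins are 32.0 upstream of Alox5ap, 18.4 upstream of Tbxa2r, 17.7 in intron 2 of Tbxas1 and 16.9 in intron 1 of Pla2g4a.

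In order of FLI1 over input within 2 kb of the gene start the genes ran Pla2g4a, Ptgs1, Tbxa2r, Tbxas1, Alox12, Ptgir, Ptgs2, Alox5 and Alox5ap. The intervals of neighbours in this order overlapped at every step. Tbxas1 takes its place from the 5′ end shared with Hipk2, at 2.15, and at the Tbxas1-001 start its 1.19 would be below all the others. The median over the 9 genes was 1.90 and that of all protein-coding genes 1.26. Within 1 kb of the start the order differed, with Ptgs1 at 6.25 and Pla2g4a at 6.05 first and Ptgir at 1.16 and Alox5 at 1.13 last. In order of the highest bin of the territory, Alox5ap came first and Ptgs2 last.

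Over all 9 territories, 81 of 2072 bins were FLI1-rich (3.91%), against 0.935% of the bins in the territories of all protein-coding genes. They formed 54 runs. Of the 81 bins, 45 were intronic, 1 was exonic, 22 were upstream and 13 downstream, and 22 lay nearer to the start of another gene. Each of the 9 genes had at least 1, a count that 66.4% of all genes reach, and of genes with like length 69.5% on average. The median number per territory was 8 over the 9 genes and 2 over all genes. A ChIP fragment is read from its ends, so that reads around a bound site face it from both sides. In the 81 bins a median of 73.6% of reads within 200 bp faced the summit (quartiles 66.0 to 79.3), against 64.7% in the remaining bins. The median distance between the strands was 95 bp, against 57.5 bp. Summits were set from the same reads, which raises the share facing them in both sets of bins, so these values are no separate test of binding.

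RUNX1 reads were few in the deposited file, and a RUNX1-rich bin rests on 6 to 10 reads. Within 2 kb of the start, Alox5 and Tbxa2r had such a bin (2 of 9 genes, against 6.39% of all genes). In the territories it was 8 of 9 genes, all but Ptgs2, against 24.6% of all genes and an average of 26.4% of genes with like length. With at least 8 reads it was 5 of 9 against 5.37%, and with 10 kb to either side 5 of 9 against 19.4%. With the grid of bins moved by 200 bp it was 6 of 9 against 25.1%, and with reads placed at their 5′ end 6 of 9 against 21.8%, in both cases without Alox5 and Pla2g4a. Of the 2072 bins, 12 were RUNX1-rich (0.579%), against 0.131% in the territories of all protein-coding genes. Both ends of a fragment can be among the RUNX1 reads: 40.2% of plus-strand reads had a minus-strand read 80 to 400 bp further on, against 23.1% when the strands were shifted by 5000 bp. If all reads that could be such pairs were pairs, the 12 bins would rest on 3 to 7 fragments each. Every RUNX1 interval given here counts reads as independent, and with such pairs it would be too narrow.

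A bin rich in both factors was present in the territory of 5 of 9 genes (Tbxas1, Alox12, Alox5, Alox5ap and Ptgir), against 11.9% of all genes. The strongest of these was the upstream site of Alox5ap, with 370 FLI1 reads and 10 RUNX1 reads at a RUNX1 fold of 13.7 (6.56 to 25.2), of which 3 were on the plus strand and 7 on the minus strand. At Tbxas1 it was a bin 16866 bp from the 5′ end of the record, nearer to the start of Hipk2, at 16080 bp, than to any Tbxas1 start. That bin held 49 FLI1 reads at a fold of 3.59 (2.65 to 4.74) and 10 RUNX1 reads at a fold of 11.6 (5.56 to 21.3). At Alox5 the shared bin was the intron 1 bin 1911 bp from the gene start, with 69 FLI1 and 6 RUNX1 reads. Its RUNX1 call was lost with the grid moved by 200 bp. For Alox12 and Ptgir the shared bins were those at the starts of 0610010K14Rik and Calm3, and with bins within 2 kb of another gene's start left out, 3 of 9 genes had a shared bin (Tbxas1, Alox5 and Alox5ap), against 7.86% of all genes. A RUNX1-rich bin then remained in 7 of 9 territories, against 19.6%.

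The RUNX1-rich bins did not coincide with the highest FLI1 bins of Tbxas1, Pla2g4a, Ptgs1, Alox5 or Tbxa2r. In Tbxas1 the remaining 2 RUNX1-rich bins, with 7 and 6 RUNX1 reads, held 7 and 16 FLI1 reads at folds of 0.385 and 1.08. The bin of 7 RUNX1 reads ended 600 bp upstream of the Tbxas1-006 start. In intron 3 of Pla2g4a a bin of 8 RUNX1 reads at a fold of 11.8 (5.08 to 23.2) held 13 FLI1 reads at a fold of 1.21. The RUNX1-rich bin of Ptgs1 lay 19816 bp upstream, with 7 RUNX1 and 13 FLI1 reads. That of Tbxa2r lay in intron 1, 694 bp from the gene start, with 7 RUNX1 reads and 30 FLI1 reads at a fold of 2.12.

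**Figure D4:**
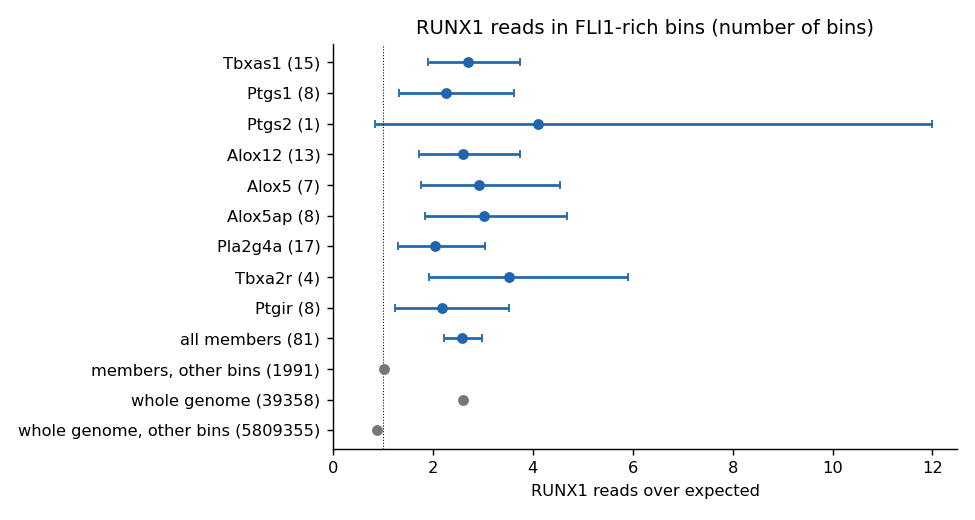
RUNX1 reads over expected reads, summed over the FLI1-rich bins of each gene, of all 9 genes and of the whole genome, with the number of bins in brackets. Bars are 95% Poisson intervals for counting error, which are narrow at the grey points, and the dotted line marks a ratio of 1. The 9 genes together are at 2.58 and the whole genome at 2.60, whereas bins that are not FLI1-rich are at 1.03 and 0.875.

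Summed over bins, RUNX1 was nonetheless higher where FLI1 was. The 81 FLI1-rich bins held 177 RUNX1 reads where 68.5 were expected, a ratio of 2.58 (2.22 to 2.99), and the other bins of the same territories had a ratio of 1.03 (0.982 to 1.08). All FLI1-rich bins of the genome had a ratio of 2.60 (2.58 to 2.61), so the 9 genes lay at the level of FLI1-rich bins anywhere. By gene the ratio ran from 2.04 (1.31 to 3.04) at Pla2g4a to 3.52 (1.92 to 5.91) at Tbxa2r, apart from 4.10 (0.846 to 11.99) in the single bin of Ptgs2. At Tbxas1 it was 2.71 (1.90 to 3.75). The intervals of all 9 genes overlapped.

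At the gene starts, RUNX1 over input had a median of 1.41 over the 9 genes, against 1.17 over all protein-coding genes. It was 3.65 (1.60 to 8.005) at Pla2g4a, 3.28 (1.72 to 6.08) at Tbxas1 and 2.24 (1.17 to 4.11) at Alox12. These intervals lay above 1, with each read counted as independent. Within 1 kb of the Alox12 start it was 1.37 (0.401 to 3.76), an interval that includes 1. The first 2 of these starts are those with the fewest input reads. At the start of Tbxas1-001 the RUNX1 ratio was 0.638 (0.246 to 1.40), and at that of Tbxas1-006 it was 1.97 (1.15 to 3.26). Ptgir had the lowest value, 0.405 (0.107 to 1.099), from 4 reads.

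The DNA under the FLI1 summits was searched for motif letters on both strands. ETS letters (CCGGAA or CAGGAA) were present within 100 bp of the summit in 52 of 81 FLI1-rich bins, or 64.2% (52.8 to 74.6, exact binomial interval). They were in 66.7% of all FLI1-rich bins of the genome and in 20.5% of windows at the centres of sampled genome bins. By gene, 12 of 13 windows of Alox12 and 7 of 8 of Alox5ap held them, as did 6 of 7 of Alox5, 6 of 8 of Ptgir, 10 of 17 of Pla2g4a, 4 of 8 of Ptgs1, 6 of 15 of Tbxas1 (40.0%, 16.3 to 67.7), 1 of 4 of Tbxa2r and 0 of 1 of Ptgs2. The core GGAA, searched after the data were seen, was in all 15 Tbxas1 windows, in 98.8% of the 81 windows, in 98.2% of all FLI1-rich bins and in 87.4% of sampled windows. RUNX letters (TGTGGT or TGCGGT) were in 26 of 81 windows (32.1%), against 27.6% of all FLI1-rich bins and 14.99% of sampled windows, and both kinds together in 22.2%, 18.4% and 3.04%. GATA letters (AGATAA) were in 18.5% (10.8 to 28.7), against 14.4% of all FLI1-rich bins and 13.5% of sampled windows. The letters TGACTCA, searched as AP-1 or NF-E2 letters without telling these factors apart, were in 6.17% (2.03 to 13.8), against 7.64% and 3.28%. Both intervals include the share of sampled windows. The windows of the 81 bins had 51.1% GC and the sampled windows 41.8%, and windows of adjacent bins overlap.

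**Figure D5:**
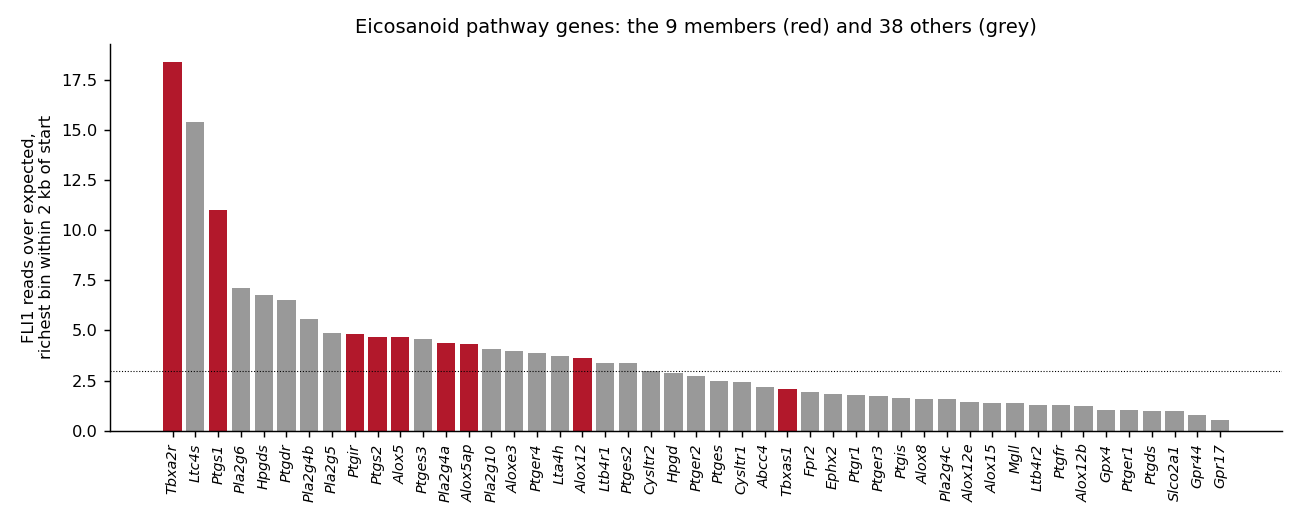
FLI1 reads over expected reads in the richest 400-bp bin within 2 kb of the gene start, for the 9 genes (red) and 38 other genes of eicosanoid metabolism and signalling (grey), in descending order. The dotted line is 3 times expected. Tbxa2r is first at 18.4 and Ltc4s next at 15.4, while Tbxas1 at 2.07 lies below the line.

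Of 40 other genes of eicosanoid metabolism that were listed, 38 were found, and 13 of these had a FLI1-rich bin within 2 kb of the start (34.2%), a share close to the 39.3% of all genes. A FLI1-rich bin lay in the territory of 31 of the 38 (81.6%), against 66.4% of all genes. Of the bins in these territories 1.83% were FLI1-rich, against 0.935% in those of all protein-coding genes. The median fold of the richest start bin over the 38 genes was 2.06. The 5 highest were Ltc4s, which encodes leukotriene C4 synthase, at 15.4, then Pla2g6, a calcium-independent phospholipase, at 7.11, Hpgds, the haematopoietic prostaglandin D synthase, at 6.78, Ptgdr, a prostaglandin D receptor, at 6.52, and Pla2g4b, a further cytosolic phospholipase, at 5.59. The 3 lowest were Slco2a1, a prostaglandin transporter, at 0.969, Gpr44, another prostaglandin D receptor, at 0.774, and Gpr17 at 0.554. RUNX1-rich bins lay within 2 kb of the start of 2 of the 38 (Ptger4 and Aloxe3), or 5.26% against 6.39% of all genes, and in the territories of 8, or 21.1% against 24.6%. With the grid moved by 200 bp the latter count was 13, or 34.2% against 25.1%. A bin rich in both factors occurred in 1 of the 38, Gpx4, in 5 of the 9 genes and in 11.9% of all genes, and with bins at other genes' starts left out in 1, in 3 and in 7.86%. The sets are small and no test of the difference was made.

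The cell label was checked at marker gene starts, which ChIP-seq shows as occupancy and not as RNA. Of 8 megakaryocyte markers 7 had a FLI1-rich bin within 2 kb of the start, with a median fold of the richest bin of 13.95, and Vwf at 2.10 did not, against the 39.3% of all genes given above. The same was found at 1 of 5 erythroid, 2 of 5 granulocyte, 2 of 5 monocyte and macrophage, 0 of 4 hepatocyte and 1 of 2 lymphoid markers, with median folds of 1.53 to 2.74. In lists this short such counts cannot be told apart from the share of all genes, and they do not show whether those cells were present. The lipoxygenase genes Alox5 and Alox5ap are also active in myeloid cells, whose part in the reads was not tested. Of the myeloid markers, Mpo at 11.2 and Cd68 at 6.98 had the highest folds.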

How the data were processed

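Chromatin was immunoprecipitated with FLI1 or RUNX1 antibodies from cultured mature megakaryocytes. The deposited values are of another kind than counts: the authors aligned their reads to the mm9 build using Bowtie (version not given in the sources used here), kept 1 read per position in the ChIP files, and deposited each read's chromosome, start, end and strand. The submitters' notes also name MACS 1.4 and SICER 1.1. The labels give sonicated chromatin, the methods an input digested with micrococcal nuclease.

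Reads were placed 75 bp downstream of their 5′ end, mitochondrial reads left out and repeated input positions (3.24%) counted once. Of 20000 FLI1 and 20000 RUNX1 reads looked at, 96.4% and 96.6% matched the mm9 genome with at most 2 mismatches. Gene models were GENCODE M1. Counting, exact Poisson and conditional binomial intervals, and the search for letters used Python 3.11.15, numpy 2.4.6, scipy 1.17.1 and pysam 0.24.0, after a check on simulated data. Promoter entries of RefSeq matched 8 of 9 genes and were placed by exact match in mm9.

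The 9 genes, the 38 other pathway genes, the markers and the motifs were chosen with earlier results of these data known. Described were the 10 bins with most FLI1 reads at Tbxas1, the 3 at each other gene, and, chosen after their values were seen, sites next to a gene's own start and RUNX1-rich bins. Of other pathway genes, the 5 highest and 3 lowest by fold at the start are named. Alternatives were no input, other thresholds, windows, grid and read placement, repeated input positions kept and FLI1 thinned to 3973375 reads.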

Additional observations from a re-analysis of the deposited data

How the results depend on the processing

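The 7 counts and ratios that carry the comparisons had 56 alternative values. Of these, 41 stayed within 1.5 times the reported count or within the 95% interval of the reported ratio, and 15 moved further. Changes of direction against all genes were not scored. The number of FLI1-rich bins at Tbxas1, 15 as reported, was 23 without input, 36 at 2 times expected, 5 at 5 times expected and 4 after thinning FLI1 to as many reads as RUNX1 had. The number of the 9 genes with a FLI1-rich bin within 2 kb of the start, 8 as reported, was 2 at 5 times expected, 5 within 1 kb and 2 with FLI1 thinned (against 20.2% of all genes). For the other pathway genes the count of 13 became 5 at 5 times expected and 3 with FLI1 thinned. The number of the 9 genes with a RUNX1-rich bin in the territory, 8 as reported, was 5 with at least 8 reads and 5 with 10 kb to either side, and 6 with the grid moved by 200 bp (against 25.1% of all genes) or with reads placed at their 5′ end (against 21.8%). RUNX1 over expected in FLI1-rich bins, 2.58 as reported, was 3.00 without input, 2.16 at 2 times and 3.45 at 5 times expected. Leaving out bins within 2 kb of another gene's start, chosen after seeing the data, gave 9 genes for FLI1 (against 58.8% of all genes), 7 for RUNX1, 3 in place of 5 for bins rich in both, and a RUNX1 ratio of 2.37. Ratios of single genes had 91 alternative values, of which 14 lay outside the 95% interval of the reported ratio. Those of the FLI1 over input ratio of the territory were 1.21 at Alox5, 1.47 at Tbxa2r and 0.998 at Alox5ap with 10 kb to either side (from 1.11, 1.18 and 1.23), and 1.43 at Alox12, 1.08 at Alox5ap, 1.098 at Ptgir and 1.18 at Ptgs1 with 50 kb (from 1.64, 1.23, 1.38 and 1.45). Within 1 kb of the start, FLI1 over input was 6.25 at Ptgs1, 3.17 at Ptgs2, 1.81 at Alox5ap, 1.70 at Tbxa2r and 1.16 at Ptgir, and RUNX1 over input was 0.365 at Alox5, 5.47 at Tbxas1, 1.37 at Alox5ap (from 0.835) and 1.37 at Alox12 (from 2.24), the last 3 within their intervals. At the Tbxas1-001 start, chosen after seeing the data, FLI1 over input was 1.19 in place of 2.15. The causes were not tested. No paired analysis was possible because each antibody had 1 library, and leaving out a replicate was not possible for the same reason.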
